A study of Mus musculus with 18 samples.

Results

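The transforming growth factor beta (TGF-β) and bone morphogenetic protein (BMP) signalling genes are described here in cultured mouse mesenchymal stem cells (MSCs), the adherent stromal cells of bone marrow. The list held 55 genes chosen for their place in the pathway, from ligands to target genes, and all 55 were among the 27179 genes of the table. Of these, 51 reached the filter, a mean of 10 normalized counts or more across the 18 libraries, and are reported with tests. Bmp2, Bmp3, Bmp7 and Gdf10 were under this filter. The members sit in 8 roles, which are 3 TGF-β ligands, 11 BMP and GDF ligands, 3 activin and inhibin subunits, 11 receptors, 8 antagonists, 5 latency and processing proteins, 8 Smads, and 6 target genes and nuclear regulators.

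RNA was sequenced from young MSCs, old MSCs and rejuvenated old MSCs of C57BL6 mice, with 6 libraries in each of the 3 groups. Young MSCs came from mice of 6 weeks and old MSCs from mice of 18 to 24 months, all described as male. Each population was cultured for 7 days. Old MSCs were grown by themselves, and rejuvenated old MSCs are the same kind of cells grown with young MSCs on the other side of a Transwell membrane with 0.4 µm pores, which soluble factors cross and cells do not. Old MSCs grown across the membrane from a second layer of old MSCs were not analysed here, so the presence of a second cell layer and the age of its donor cannot be told apart. The labels call the libraries biological replicates without tying them to separate mice, and p-values then measure only the spread between these samples.

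TGF-β family ligands are secreted dimers that bring together type II and type I receptor kinases at the cell surface. The TGF-β and activin branch signals through Smad2 and Smad3, the BMP branch through Smad1, Smad5 and Smad9, and both share Smad4. TGF-β is stored in the matrix in a latent form held by latent TGF-β binding proteins, whereas BMPs are held in check by secreted antagonists such as noggin, chordin and gremlin. The inhibitory Smads, Smad6 and Smad7, are induced by the pathway and dampen it, and the Id genes are classic early targets of BMP signalling. In bone marrow stroma, BMPs are known for driving osteoblast differentiation and TGF-β for matrix production.

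The libraries held 22936251 to 29559194 reads on genes. The 4 Y-linked genes Kdm5d, Eif2s3y, Uty and Ddx3y had at most 2 reads in any young library, against 570 to 2203 normalized counts in old and 493 to 2355 in rejuvenated old libraries, and Xist was at most 41.2 in every library. The donors were all described as male, and whether the young cells came from other donors or had lost the Y chromosome was not tested. Between young and old MSCs whole chromosomes also shifted, with a median log2 difference of -0.69 on chromosome 1, 0.61 on chromosome 7, -0.46 on chromosome 12 and -0.75 on chromosome 16, against -0.30 to 0.22 on the others. Every value for young MSCs thus compares cells that may differ in chromosome content or source as well as in age, and these cannot be told apart. The summed level of 10 macrophage markers was 948 to 1068 for young, 13161 to 16398 for old and 13001 to 15876 for rejuvenated old MSCs. Most of the old sum was Lyz2, with a mean of 10154. In young against old MSCs 9 of the markers were lower and 1, Aif1, was higher, where 44.1% of all genes were lower and 41.6% higher. Adgre1, Ptprc, Itgam and Tyrobp had 3 reads or fewer in each of the young libraries, whereas Cd68 and Cd14 averaged 435 and 240 normalized counts there. In rejuvenated old against old MSCs, 1 of these 10 markers rose and 1 fell, where 21.0% of all genes rose and 20.6% fell. The summed level of 10 stromal markers was 71275 to 84582, 246903 to 266676 and 275371 to 327942 in the same order, most of it Cxcl12 in old and rejuvenated old MSCs. Without Cxcl12 the other 9 summed to 61837 to 75209, 58387 to 62201 and 64262 to 67276, and of the 10 markers 4 were higher and 6 lower in young than in old MSCs, with Thy1 at no more than 3 reads in old libraries. After co-culture 3 of the 10 rose and 3 fell. The 6 endothelial markers summed to 122 to 174 for young, 18.3 to 40.4 for old and 14.2 to 25.1 for rejuvenated old MSCs. The Y-linked genes and the macrophage sum overlapped between old and rejuvenated old libraries, so those differences go with the comparisons against young MSCs. The part of these markers in any comparison was not tested. In bulk RNA, fewer cells of a type and less RNA per cell cannot be told apart.

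Sequences upstream of the start site are shown for 5 members that carry the comparisons. Bmp4, Smad6 and Id4 were highest in rejuvenated old and lowest in young MSCs. Chrd had higher counts in all rejuvenated old libraries than in all others, and Tgfb1 fell where Bmp4 rose. Windows are the 250 bases before the start, written 5′ to 3′ on the strand of the gene, from RefSeq on GRCm38.p6 (mm10). Capitals mark matches on either strand to GGCGCC, a GC-rich sequence known from BMP target genes, or to CAGAC, the Smad3 and Smad4 box. They also mark ACGTG, a sequence contained in the E-box CACGTG but not by itself an E-box.
The Bmp4 window (chr14:46390670-46390919, minus strand) holds CACGTG, a palindrome that counts as 2 overlapping ACGTG matches.
Bmp4: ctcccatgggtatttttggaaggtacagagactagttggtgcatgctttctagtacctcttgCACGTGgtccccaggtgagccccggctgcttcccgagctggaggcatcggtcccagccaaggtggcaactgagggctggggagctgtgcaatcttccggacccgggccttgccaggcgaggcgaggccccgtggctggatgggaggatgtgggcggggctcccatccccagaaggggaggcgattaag
The Smad6 window (chr9:64022060-64022309, minus strand) holds 2 separate ACGTG matches, both preceded by G and so not part of a CACGTG.
Smad6: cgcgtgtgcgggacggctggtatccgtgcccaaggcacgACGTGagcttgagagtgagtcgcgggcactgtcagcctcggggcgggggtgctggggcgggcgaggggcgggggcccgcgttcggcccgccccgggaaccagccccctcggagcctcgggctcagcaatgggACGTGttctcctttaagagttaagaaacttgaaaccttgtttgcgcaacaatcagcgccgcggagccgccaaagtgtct
The Id4 window (chr13:48260866-48261115, plus strand) holds 1 GGCGCC.
Id4: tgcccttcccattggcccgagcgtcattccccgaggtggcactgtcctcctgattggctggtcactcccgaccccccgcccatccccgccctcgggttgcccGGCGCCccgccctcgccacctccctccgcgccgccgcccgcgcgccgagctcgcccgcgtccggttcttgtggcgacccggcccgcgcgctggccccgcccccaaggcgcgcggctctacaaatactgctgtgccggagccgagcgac
The Chrd window (chr16:20732877-20733126, plus strand) also holds 1 GGCGCC, and it lies inside the span of the annotated gene (chr16:20731425-20742384).
Chrd: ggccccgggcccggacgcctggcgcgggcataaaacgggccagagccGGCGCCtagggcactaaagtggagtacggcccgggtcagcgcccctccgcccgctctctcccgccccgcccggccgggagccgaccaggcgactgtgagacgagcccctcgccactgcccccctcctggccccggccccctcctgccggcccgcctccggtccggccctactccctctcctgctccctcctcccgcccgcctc
The Tgfb1 window (chr7:25686752-25687001, plus strand) holds none of the 3 motifs.
Tgfb1: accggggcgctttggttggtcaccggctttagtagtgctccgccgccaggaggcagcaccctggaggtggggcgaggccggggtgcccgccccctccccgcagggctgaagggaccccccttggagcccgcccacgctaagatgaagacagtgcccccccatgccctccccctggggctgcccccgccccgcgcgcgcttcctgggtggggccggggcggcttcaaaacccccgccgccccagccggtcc
Upstream windows were matched for 37 of the 55 members, with 46 windows in all. GGCGCC was found in 12 of them (26.1%) against 9.59% of all 32851 windows, CAGAC in 22 (47.8%) against 42.2%, and ACGTG in 8 (17.4%) against 16.6%. The median GC content was 65.4% in the windows of members and 52.4% in all windows. A match is a description of the sequence and does not show binding.

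Members changed in both directions after co-culture. In rejuvenated old against old MSCs, 13 of the 51 members rose and 19 fell (limma, adjusted p under 0.05), while 19 did not pass the test. Among all 14353 genes tested, 41.6% passed in this comparison, 21.0% higher and 20.6% lower. The median log2 fold change of the members was -0.10 and the median absolute change 0.24, against 0.01 and 0.15 over all genes. In young against old MSCs, 16 members were higher and 31 lower, with 4 not passing. Here 85.7% of all genes passed, 41.6% higher and 44.1% lower, so passing the test says little about a member. The size of the differences was larger, with a median of -0.42 and a median absolute value of 1.17, against -0.02 and 0.60 over all genes. The median of the members stayed at -0.42 with Bmp5, which young MSCs lacked, set to its bound. In rejuvenated old against young MSCs, 30 members were higher and 16 lower, where 85.6% of all genes passed, 44.1% higher and 41.5% lower. Both comparisons against old MSCs share the 6 old libraries, so the values are set side by side and not correlated.

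**Figure D1:**
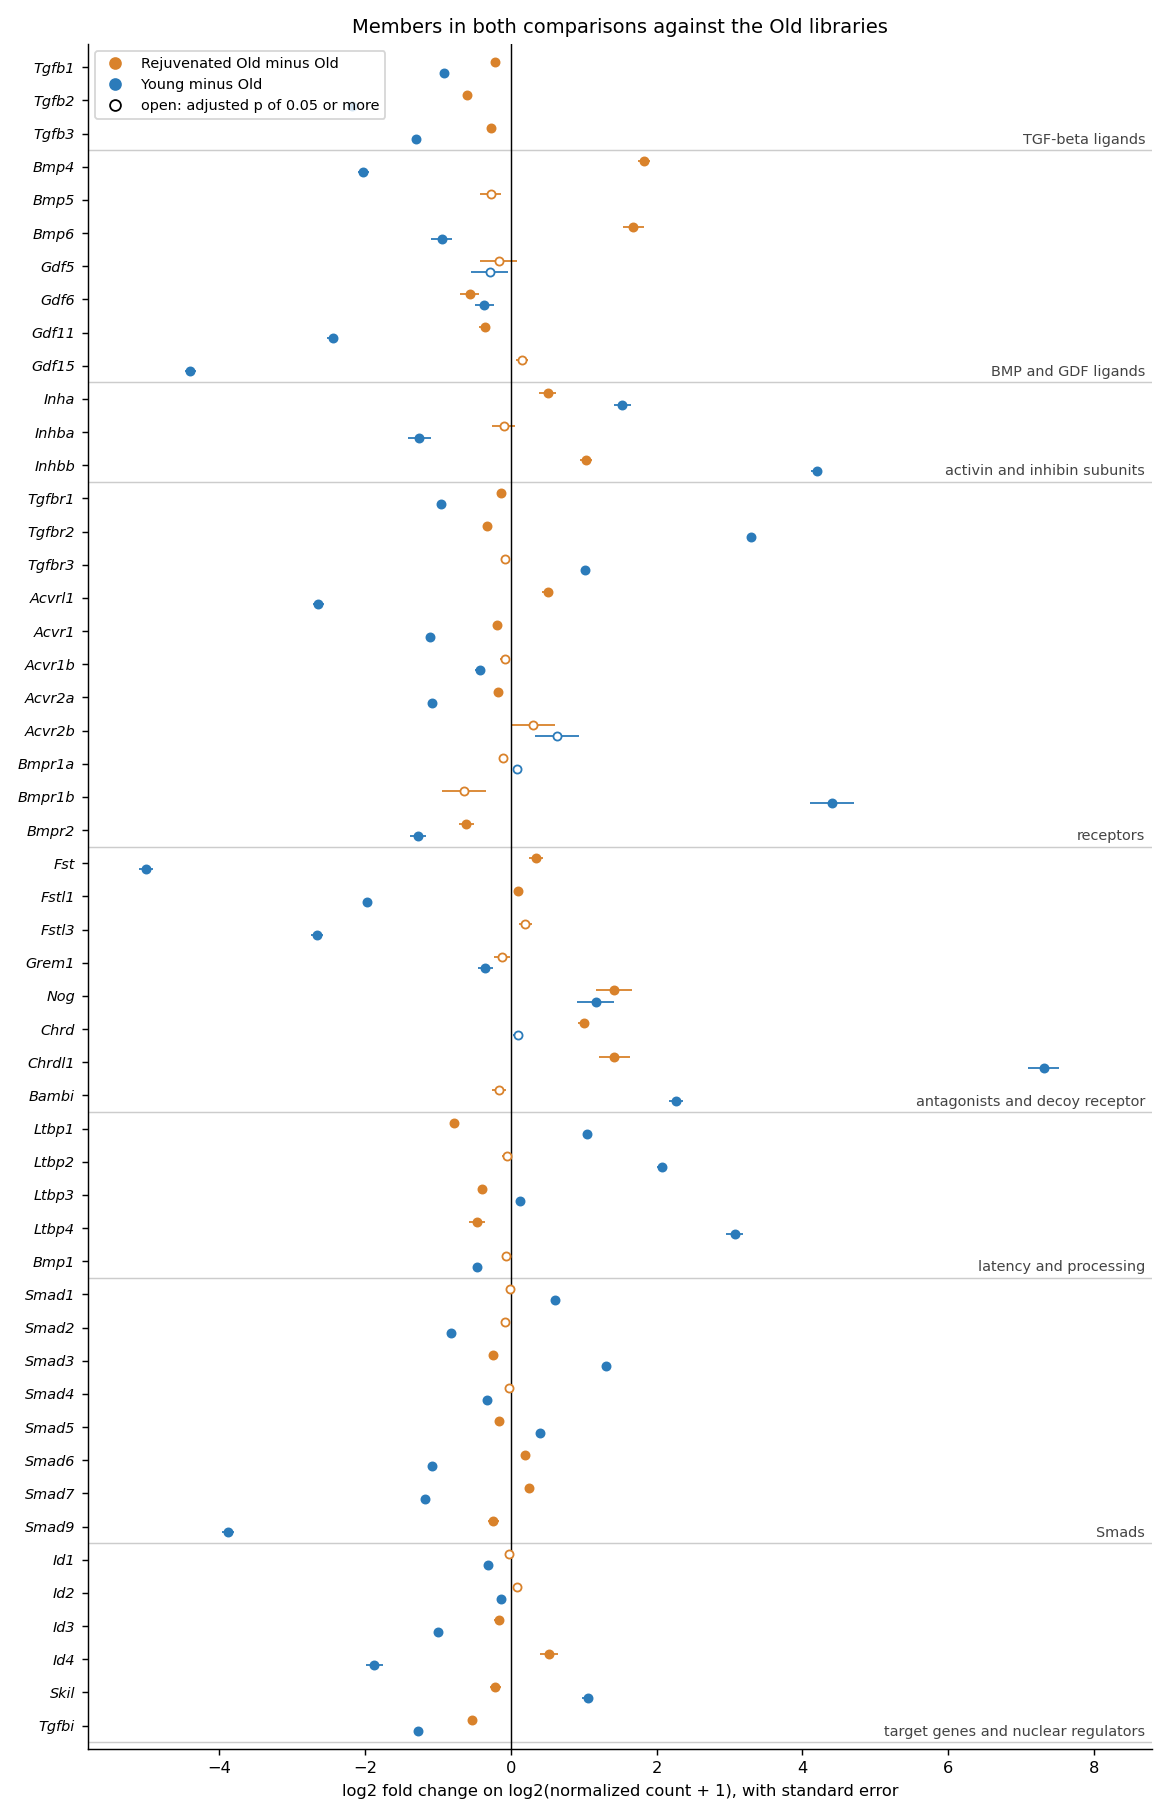
Log2 fold changes of the 51 members, by role, in rejuvenated old against old MSCs (orange) and in young against old MSCs (blue), with the standard error as a bar and open circles for an adjusted p of 0.05 or more. TGF-β ligands lie left of 0 in both comparisons, whereas Bmp4 and Bmp6 lie right of 0 after co-culture and left of 0 in young MSCs; the point of Bmp5 in young MSCs is left out because that group had no more than 1 read per library.

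All 3 TGF-β ligands fell after co-culture and were lower still in young MSCs. Of all genes, 20.6% fell after co-culture and 44.1% were lower in young than in old MSCs. Tgfb1, the isoform that acts most widely on immune and matrix cells, had 555 to 632 (median 588) in young libraries, 1077 to 1155 (median 1099) in old libraries and 884 to 993 (median 967) in rejuvenated old libraries normalized counts. The 3 groups did not overlap, and the rejuvenated old libraries lay between the others. Its log2 fold change was -0.22 (SE 0.04, adjusted p = 0.000126) in rejuvenated old and -0.91 (SE 0.04, adjusted p = 5.19e-16) in young against old MSCs. Tgfb1 lies on chromosome 7, where the median gene was higher in young MSCs by 0.61, and relative to that median its difference was -1.52. Tgfb2 (chr1:186622787-186709697), an isoform best known from development, had the largest changes of the 3. Its normalized count was 460.2 to 561 (median 481) in young libraries, 1973 to 2441 (median 2227) in old libraries and 1295 to 1578 (median 1494) in rejuvenated old libraries. All 6 rejuvenated old libraries lay below all 6 old libraries, at 0.659 times their level on the log2(normalized count + 1) scale, with a log2 fold change of -0.60 (SE 0.06, adjusted p = 2.45e-08). The difference in young MSCs was -2.18 (SE 0.06, adjusted p = 5.17e-20), or -1.49 relative to the median of -0.69 on chromosome 1.

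Tgfb3, the third isoform, was the most abundant per kilobase of exon. It had 2103 to 2286 (median 2237) in young libraries, 5315 to 5581 (median 5526) in old libraries and 4147 to 4948 (median 4520.0) in rejuvenated old libraries normalized counts. Again the groups did not overlap. The log2 fold change was -0.27 (SE 0.03, adjusted p = 1.3e-06) after co-culture and -1.30 (SE 0.03, adjusted p = 4.94e-20) in young MSCs, or -0.85 relative to the median of -0.46 on chromosome 12. Of the exonic bases of Tgfb3, 12.4% are shared with genes on the other strand, and the strand setting of the counting was not stated.

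Among BMP and GDF ligands, Bmp4 and Bmp6 rose after co-culture, Gdf6 and Gdf11 fell, and Bmp5, Gdf5 and Gdf15 did not pass the test. Bmp4 (gene number 12159, chr14:46383525-46390669), a BMP that drives osteoblast differentiation and whose upstream sequence is printed above, had the largest rise of all members. It had 551 to 675 (median 634) in young libraries, 2402 to 2689 (median 2523) in old libraries and 7356 to 10612 (median 9256) in rejuvenated old libraries normalized counts. Every rejuvenated old library lay far above every old library, and every young library lay below both groups. The rise was 3.55-fold, with a log2 fold change of 1.83 (SE 0.08, adjusted p = 3.3e-14), and the level in young MSCs differed from old MSCs by -2.02 (SE 0.08, adjusted p = 4.99e-17). Within the rejuvenated old group the spread was wide, with a mean of 9082 ± 1466 (SD, n = 6) against 2532 ± 106 (SD, n = 6) in old MSCs. Leaving out any 1 of the 18 libraries kept the rise between 1.78 and 1.88. Bmp6, a related BMP that also regulates iron through hepcidin, showed the same order at a lower level. Its normalized count was 30.2 to 64.7 (median 52.4) in young libraries, 86.3 to 102 (median 96.5) in old libraries and 249 to 391 (median 298) in rejuvenated old libraries. No group overlapped another, and the log2 fold change was 1.68 (SE 0.14, adjusted p = 4.39e-09) in rejuvenated old and -0.95 (SE 0.14, adjusted p = 2.31e-06) in young MSCs.

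Bmp5, known for its role in skeletal patterning, separated young from old MSCs almost completely. Young libraries had 1 read in total, against 975 to 1264 (median 1126) normalized counts in old and 784 to 1020.5 (median 976) in rejuvenated old libraries. With 3 reads per library as the floor, the mean was at least 359-fold higher in old and at least 297-fold higher in rejuvenated old than in young MSCs. The libraries of old and rejuvenated old MSCs overlapped, at a log2 fold change of -0.28 (SE 0.14, adjusted p = 0.133). Bmp5 passed at the same fold change when old and rejuvenated old libraries were fitted alone. Exons of another gene, Gm26903, cover 46.7% of its exonic bases on the other strand.

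Gdf15, a distant member of the family that is induced by cellular stress, had 91.7 to 146 (median 112) in young libraries, 2267 to 2606 (median 2346) in old libraries and 2434 to 3053 (median 2609) in rejuvenated old libraries normalized counts. It was higher in all old and rejuvenated old libraries than in any young library, with a log2 difference of -4.39 (SE 0.08, adjusted p = 6.31e-23) in young MSCs, while old and rejuvenated old libraries overlapped (0.15 (adjusted p of 0.135)). Gdf11, a close relative of myostatin, had 152 to 207 (median 186) in young libraries, 960.2 to 1033 (median 1008) in old libraries and 642 to 877 (median 814) in rejuvenated old libraries. It fell after co-culture with no overlap between groups, at -0.35 (SE 0.07, adjusted p = 0.000573), and was lowest in young MSCs, at -2.44 (SE 0.07, adjusted p = 7.55e-19). Gdf6, a BMP-like factor of joints and skeleton, had 76.0 to 109 (median 86.1) in young libraries, 102 to 126 (median 119) in old libraries and 60.5 to 103 (median 75.8) in rejuvenated old libraries. All 3 groups overlapped, and the log2 fold change was -0.56 (SE 0.13, adjusted p = 0.0014) after co-culture, while young MSCs differed from old MSCs by -0.36 (adjusted p of 0.0141). Gdf5, a regulator of joint formation, was low in every group, at 12.0 to 20.9 (median 16.8) in young libraries, 11.0 to 26.6 (median 21.0) in old libraries and 12.3 to 37.7 (median 15.6) in rejuvenated old libraries, and passed neither test.

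**Figure D2:**
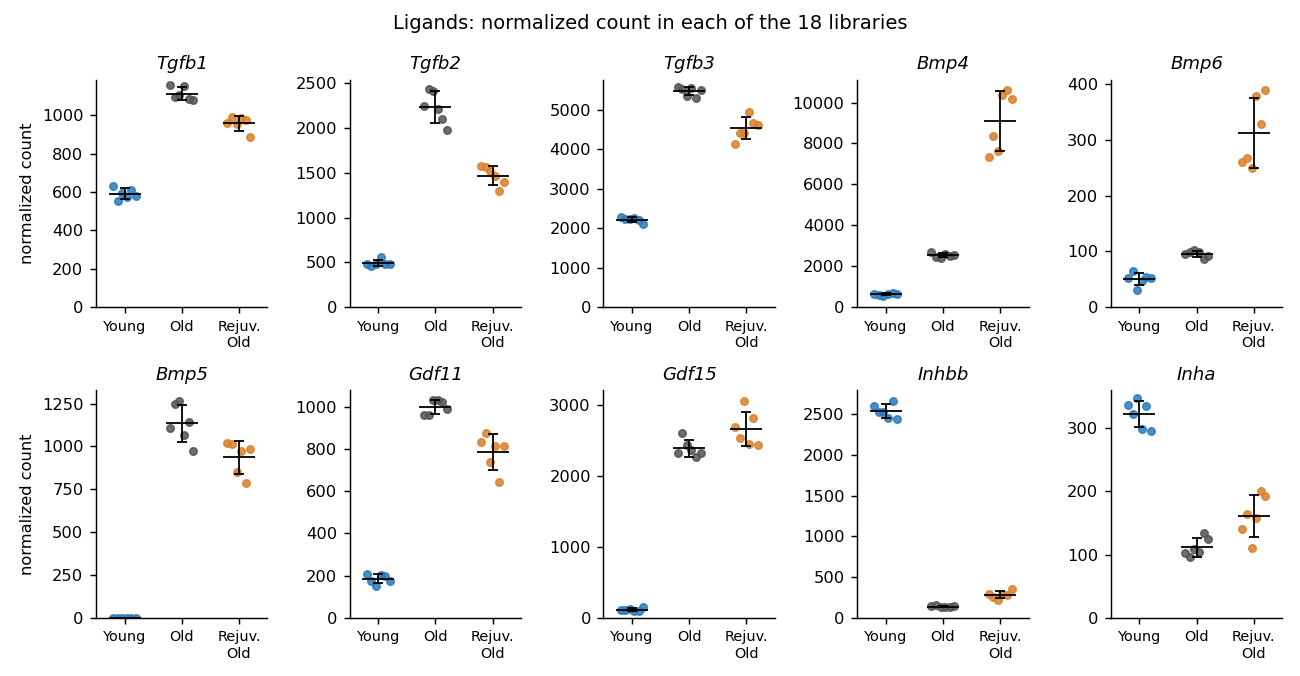
Normalized count of 10 ligand genes in each of the 18 libraries (points) with the group mean and SD (black), each panel on its own linear axis from 0. Bmp4 and Bmp6 are highest in all 6 rejuvenated old libraries, the TGF-β ligands are highest in all 6 old libraries, and Inhbb is highest in all 6 young libraries.

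The activin and inhibin subunits moved differently from the other ligands. Inhbb (chr1:119415463-119422248), the beta-B subunit of activin B, had 2441 to 2665 (median 2527) in young libraries, 126 to 155 (median 138) in old libraries and 223 to 358 (median 289) in rejuvenated old libraries normalized counts. It rose 2.05-fold after co-culture without overlap, at a log2 fold change of 1.03 (SE 0.08, adjusted p = 5.74e-10), and remained far below young MSCs, whose difference from old MSCs was 4.19 (SE 0.08, adjusted p = 6.93e-23). Inha, the alpha subunit that turns an activin into an inhibin, had 297 to 348 (median 329) in young libraries, 96.5 to 134 (median 106) in old libraries and 110.4 to 200.2 (median 161) in rejuvenated old libraries. It rose by 0.51 (SE 0.12, adjusted p = 0.00123) with overlap between old and rejuvenated old libraries, and was higher in every young library, at 1.53 (SE 0.12, adjusted p = 2.24e-11). Both genes lie on chromosome 1, where the median difference in young MSCs was -0.69. Inhba, the subunit of activin A, had 50.3 to 87.4 (median 55.6) in young libraries, 132 to 173 (median 147) in old libraries and 90.3 to 180.2 (median 143) in rejuvenated old libraries and did not pass the test after co-culture (-0.10 (adjusted p of 0.662)). It was lower in young MSCs, at -1.25 (SE 0.16, adjusted p = 1.42e-07).

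Of the 11 receptors, 1 rose and 5 fell after co-culture, where 21.0% of all genes rose and 20.6% fell. In young against old MSCs 3 were higher and 6 lower, where 41.6% of all genes were higher and 44.1% lower. Tgfbr2 (chr9:116087695-116175363), the type II receptor that binds TGF-β, showed the largest absolute difference in counts between young and old MSCs among receptors. It had 21850.3 to 22966 (median 22227) in young libraries, 2174 to 2383 (median 2270.5) in old libraries and 1556 to 2243 (median 1819.7) in rejuvenated old libraries normalized counts. The young libraries lay far above all others, 9.78-fold over old MSCs, with a log2 difference of 3.29 (SE 0.05, adjusted p = 8.56e-24), and rejuvenated old libraries partly overlapped old libraries from below, at -0.33 (SE 0.05, adjusted p = 4.38e-05). Tgfbr3, the co-receptor betaglycan that presents TGF-β2, was also higher in young MSCs, at 11022 to 12216 (median 11610.5) in young libraries, 5287 to 6152 (median 5742) in old libraries and 5071 to 5795 (median 5379) in rejuvenated old libraries. Its difference was 1.02 (SE 0.04, adjusted p = 3.18e-17) in young and -0.08 (adjusted p of 0.0804) in rejuvenated old MSCs, where it did not pass. Tgfbr1, the type I receptor of TGF-β, had 798 to 864 (median 834) in young libraries, 1548 to 1659 (median 1631) in old libraries and 1374 to 1549 (median 1490.0) in rejuvenated old libraries. It was lowest in young MSCs (-0.95 (adjusted p of 1.02e-17)) and fell slightly after co-culture (-0.13 (adjusted p of 0.00365)).

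Acvrl1, the type I receptor ALK1 that responds to BMP9 and BMP10 and is best known from endothelium, was the receptor that rose. It had 70.7 to 99.0 (median 86.6) in young libraries, 509 to 576 (median 538) in old libraries and 734 to 828 (median 757) in rejuvenated old libraries normalized counts. The groups did not overlap, with log2 fold changes of 0.51 (SE 0.07, adjusted p = 8.09e-06) in rejuvenated old and -2.64 (SE 0.07, adjusted p = 1.25e-19) in young MSCs. Of the 6 endothelial markers 2 reached the filter, of which 1 fell and 0 rose after co-culture while both were higher in young MSCs. Among all genes, 20.6% fell and 21.0% rose after co-culture, and 41.6% were higher in young than in old MSCs. Cdh5 and Erg had 3 reads or fewer in each old and rejuvenated old library, whereas Kdr, Tek and Pecam1 reached 20, 15 and 10 reads in old libraries. Bmpr2, the type II receptor for BMPs, had 64.2 to 83.4 (median 82.3) in young libraries, 151 to 214 (median 197) in old libraries and 95.9 to 140.0 (median 124) in rejuvenated old libraries. All rejuvenated old libraries lay below all old libraries and above all young libraries, with -0.61 (SE 0.11, adjusted p = 7.47e-05) and -1.27 (SE 0.11, adjusted p = 1.17e-10). Bmpr2 is on chromosome 1, and relative to that chromosome the difference in young MSCs was -0.58.

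Bmpr1b, a type I BMP receptor of cartilage, was expressed mainly in young MSCs. It had 166 to 237 (median 204) in young libraries, 5.02 to 13.6 (median 8.09) in old libraries and 1.89 to 10.4 (median 5.26) in rejuvenated old libraries normalized counts. The log2 difference was 4.40 (SE 0.30, adjusted p = 2.99e-12) in young MSCs, and the low libraries of the other groups overlapped (-0.64 (adjusted p of 0.0934)). Bmpr1a, the broadly expressed type I BMP receptor, had 2592 to 2919 (median 2703) in young libraries, 2282 to 2765 (median 2606) in old libraries and 2147 to 2596 (median 2448) in rejuvenated old libraries and passed neither test against old MSCs (-0.11 (adjusted p of 0.0702) and 0.08 (adjusted p of 0.117)). Acvr1, the type I receptor ALK2, had 1272 to 1526 (median 1448) in young libraries, 2976 to 3123 (median 3025) in old libraries and 2375 to 2884 (median 2675) in rejuvenated old libraries. It fell without overlap after co-culture, at -0.18 (SE 0.05, adjusted p = 0.00335), and was lower in young MSCs, at -1.10. Acvr1b, the activin type I receptor, did not pass after co-culture (-0.08 (adjusted p of 0.292)) and was lower in young MSCs (-0.42). Acvr2b, an activin type II receptor, was near the filter, at 9.59 to 24.7 (median 13.5) in young libraries, 4.01 to 20.2 (median 8.32) in old libraries and 6.52 to 14.2 (median 12.4) in rejuvenated old libraries, and passed no test.

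No antagonist fell after co-culture and 5 of 8 rose, where 20.6% of all genes fell and 21.0% rose. The rise of Fstl1 among them lay close to the threshold. Chrd, or chordin, which binds BMPs and keeps them from their receptors, had 424 to 513 (median 478) in young libraries, 387 to 485 (median 451) in old libraries and 793 to 1039.6 (median 887) in rejuvenated old libraries normalized counts. Young and old libraries overlapped, and all rejuvenated old libraries lay above both, with a log2 fold change of 1.00 (SE 0.07, adjusted p = 3.36e-10) against old MSCs. The difference between young and old MSCs did not pass (0.10 (adjusted p of 0.193)). Chromosome 16 had a median of -0.75, and relative to it Chrd was higher in young MSCs by 0.85 and passed. Relative to the chromosome median, rejuvenated old exceeded young MSCs by only 0.13, which did not pass. Nog, or noggin, the BMP antagonist that blocks receptor binding most tightly, was low, at 8.71 to 30.9 (median 19.1) in young libraries, 5.45 to 11.5 (median 7.28) in old libraries and 16.0 to 27.9 (median 22.3) in rejuvenated old libraries. Every rejuvenated old library lay above every old library (1.42 (SE 0.25, adjusted p = 9.17e-05)), and young libraries spanned both (1.17 (adjusted p of 0.000175) against old MSCs). Chrdl1, a chordin-like BMP antagonist, had 921 to 1072 (median 980.5) in young libraries, 1.97 to 8.60 (median 5.74) in old libraries and 12.4 to 23.7 (median 14.6) in rejuvenated old libraries. It rose after co-culture without overlap, at 1.42 (SE 0.21, adjusted p = 1.2e-05), but both groups remained near the filter while young libraries were far higher, at 7.31 (SE 0.21, adjusted p = 2.84e-19).

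Fst, or follistatin, which binds activins, had 31.3 to 50.6 (median 36.5) in young libraries, 1199 to 1305 (median 1239) in old libraries and 1398 to 1908 (median 1576) in rejuvenated old libraries normalized counts. The groups did not overlap, with 0.35 (SE 0.09, adjusted p = 0.00441) after co-culture and -5.00 (SE 0.09, adjusted p = 8.36e-23) in young MSCs. Fstl3, a follistatin relative, had 51.4 to 68.0 (median 57.2) in young libraries, 327 to 409 (median 377) in old libraries and 392 to 515 (median 428) in rejuvenated old libraries and did not pass after co-culture (0.20 (adjusted p of 0.0576)), while its difference in young MSCs was -2.66. Exons of Prss57 cover 47.3% of its exonic bases on the other strand. Grem1, or gremlin, an antagonist of BMP2 and BMP4, overlapped across all groups, at 2413 to 3421 (median 3249) in young libraries, 3278 to 4794 (median 3815) in old libraries and 2551 to 4227 (median 3851) in rejuvenated old libraries, with -0.12 (adjusted p of 0.412) after co-culture and -0.35 (adjusted p of 0.00497) in young MSCs. Bambi, a decoy receptor without a kinase domain, had 345 to 398 (median 374) in young libraries, 61.2 to 91.6 (median 76.0) in old libraries and 58.7 to 78.3 (median 69.6) in rejuvenated old libraries. It was higher in young MSCs (2.27) and did not pass after co-culture (-0.16 (adjusted p of 0.188)).

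**Figure D3:**
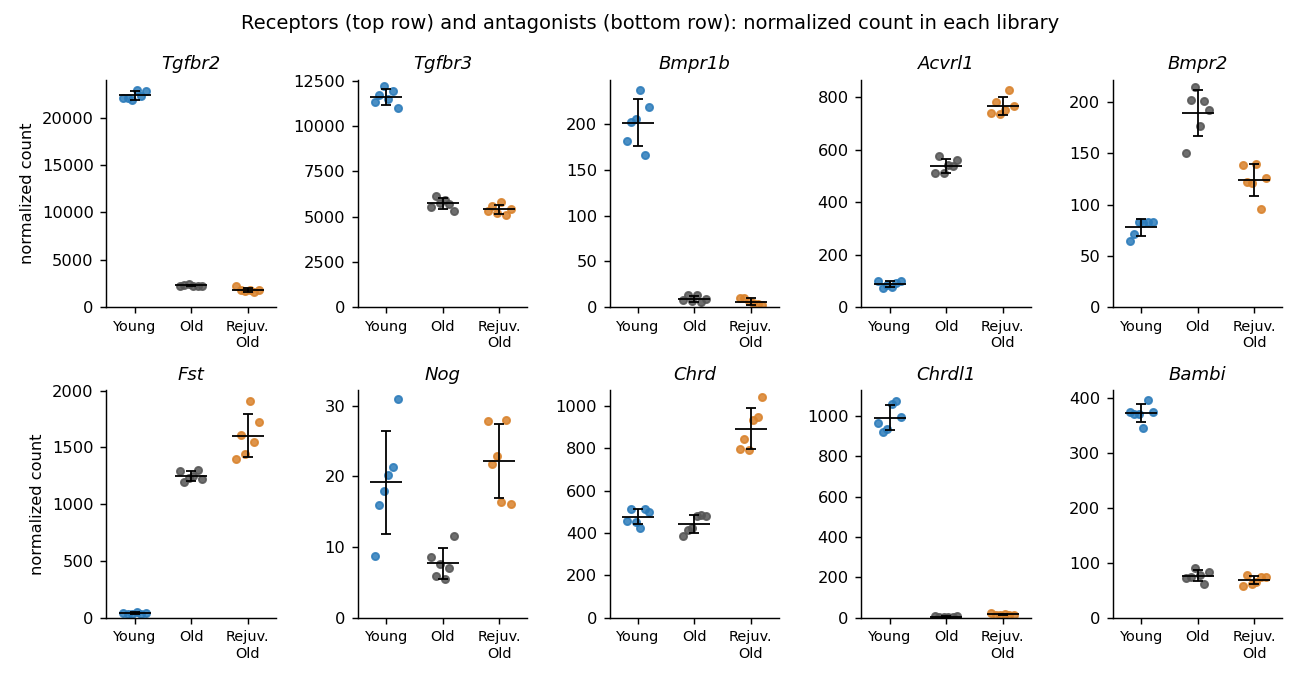
Normalized count of 5 receptors (top row) and 5 antagonists (bottom row) in each of the 18 libraries (points) with the group mean and SD (black), each panel on its own linear axis from 0. Tgfbr2, Tgfbr3, Bmpr1b, Chrdl1 and Bambi are highest in young libraries, and Acvrl1, Fst and Chrd are highest in rejuvenated old libraries.

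Of the latent TGF-β binding protein family and the protease Bmp1, 3 of 5 fell after co-culture and none rose. Of all genes, 20.6% fell and 21.0% rose. Ltbp1 (chr17:75005480-75392512), the binding protein that anchors latent TGF-β in the matrix, had 8959 to 9241 (median 9039) in young libraries, 4067 to 4785 (median 4373) in old libraries and 2138 to 3069 (median 2603) in rejuvenated old libraries normalized counts. The rejuvenated old libraries were the lowest, without overlap, at -0.77 (SE 0.06, adjusted p = 7.09e-10), and the young libraries were the highest, at 1.05 (SE 0.06, adjusted p = 8.31e-14). Ltbp3, needed for secretion of latent TGF-β in bone, had 14895 to 15676 (median 15161) in young libraries, 13289.5 to 14870.4 (median 13919) in old libraries and 9951 to 11113 (median 10604) in rejuvenated old libraries. It fell after co-culture below all libraries of the other groups (-0.39 (SE 0.03, adjusted p = 1.77e-09)), while young and old MSCs differed by 0.13 (adjusted p of 0.000478). Ltbp4, which acts in elastic fibre assembly, had 2034 to 2246 (median 2184) in young libraries, 230.4 to 285 (median 257) in old libraries and 157 to 305 (median 169.8) in rejuvenated old libraries. The fold change was -0.46 (SE 0.11, adjusted p = 0.00212) after co-culture, with 1 rejuvenated old library (replicate 1, at 305) above all old libraries, and 3.07 (SE 0.11, adjusted p = 2.34e-17) in young MSCs, on chromosome 7 with its median of 0.61. Ltbp2, a family member that does not bind TGF-β, had 1879 to 2035 (median 1946) in young libraries, 423 to 554 (median 451) in old libraries and 390.2 to 519 (median 436) in rejuvenated old libraries, with -0.06 (adjusted p of 0.515) after co-culture and 2.08 in young MSCs. Bmp1, a protease that cleaves procollagen and chordin rather than a BMP ligand, did not pass after co-culture (-0.07 (adjusted p of 0.32)) and was lower in young MSCs (-0.47).

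Of the 8 Smads, 2 rose (25.0%) and 3 fell (37.5%) after co-culture, against 21.0% and 20.6% of all genes. The inhibitory Smads, Smad6 and Smad7, both rose after co-culture. Smad6, which acts mainly on the BMP branch, had 957 to 1033 (median 1004) in young libraries, 1970.0 to 2174 (median 2139) in old libraries and 2233 to 2614 (median 2377) in rejuvenated old libraries normalized counts, and Smad7, which acts on both branches, had 475 to 537 (median 512) in young libraries, 1120.3 to 1215 (median 1156) in old libraries and 1268 to 1491 (median 1410.3) in rejuvenated old libraries. For both genes the groups did not overlap and rejuvenated old libraries were the highest, with log2 fold changes of 0.20 (SE 0.04, adjusted p = 0.000345) and 0.26 (SE 0.04, adjusted p = 3.9e-05). In young MSCs they differed from old MSCs by -1.07 (adjusted p of 3.11e-17) and -1.18 (adjusted p of 1.34e-17).

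Among the signal-transducing Smads, Smad3, which carries TGF-β and activin signals to DNA, had 4205 to 4398 (median 4317) in young libraries, 1635 to 1820.4 (median 1737) in old libraries and 1432 to 1553 (median 1450.3) in rejuvenated old libraries normalized counts. It fell after co-culture below all old libraries (-0.24 (SE 0.03, adjusted p = 7.74e-07)) and was highest in young libraries (1.31 (SE 0.03, adjusted p = 2.04e-21)). Smad2, its partner in the same branch, did not pass after co-culture (-0.08 (adjusted p of 0.128)) and was lower in young MSCs (-0.82). Of the BMP Smads, Smad5 had 1944 to 2076 (median 1976) in young libraries, 1426 to 1565 (median 1528) in old libraries and 1253 to 1414 (median 1369) in rejuvenated old libraries, and fell without overlap (-0.16 (SE 0.04, adjusted p = 0.000823)), whereas it was higher in young MSCs (0.40, or 0.70 relative to the median of chromosome 13). Smad1 was close in old and rejuvenated old MSCs (-0.01 (adjusted p of 0.897)) and higher in young MSCs (0.61). Smad9, the least abundant of them, was low in young MSCs, at 18.5 to 24.7 (median 22.1) in young libraries, 296 to 368 (median 335) in old libraries and 265 to 294 (median 285) in rejuvenated old libraries, with a log2 difference of -3.88 (SE 0.08, adjusted p = 5.17e-22) in young MSCs. Smad4, the shared partner, differed by -0.02 (adjusted p of 0.749) after co-culture and by -0.32 in young MSCs, or -0.08 relative to the median of chromosome 18.

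Of the 6 target genes and nuclear regulators, 1 rose and 3 fell after co-culture, where 21.0% of all genes rose and 20.6% fell. The falls of Id3 and Skil among them lay close to the threshold. Among the Id genes, inhibitors of basic helix-loop-helix factors, Id4 rose after co-culture and had 118 to 171 (median 139) in young libraries, 439 to 624 (median 532) in old libraries and 587 to 959.9 (median 799.7) in rejuvenated old libraries normalized counts. The rejuvenated old libraries overlapped the highest old libraries, with a log2 fold change of 0.53 (SE 0.12, adjusted p = 0.00116), and young libraries lay below all others (-1.87 (SE 0.12, adjusted p = 9.86e-13)). Id1 had 1008 to 1184 (median 1122) in young libraries, 1263 to 1548 (median 1355) in old libraries and 1217 to 1546 (median 1305) in rejuvenated old libraries, and its old and rejuvenated old libraries overlapped (-0.02 (SE 0.06, adjusted p = 0.812)). Id2 did not pass after co-culture either (0.08 (adjusted p of 0.229)), and the difference in young MSCs was -0.13 (adjusted p of 0.0234), which turned to 0.33 relative to the median of chromosome 12. Tgfbi, a matrix protein named for its induction by TGF-β, had 323 to 358 (median 342) in young libraries, 719 to 868 (median 838) in old libraries and 532 to 631 (median 556) in rejuvenated old libraries. It fell after co-culture without overlap (-0.53 (SE 0.05, adjusted p = 3.52e-08)), towards the lower level of young MSCs (-1.26 (SE 0.05, adjusted p = 2.13e-16)).

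**Figure D4:**
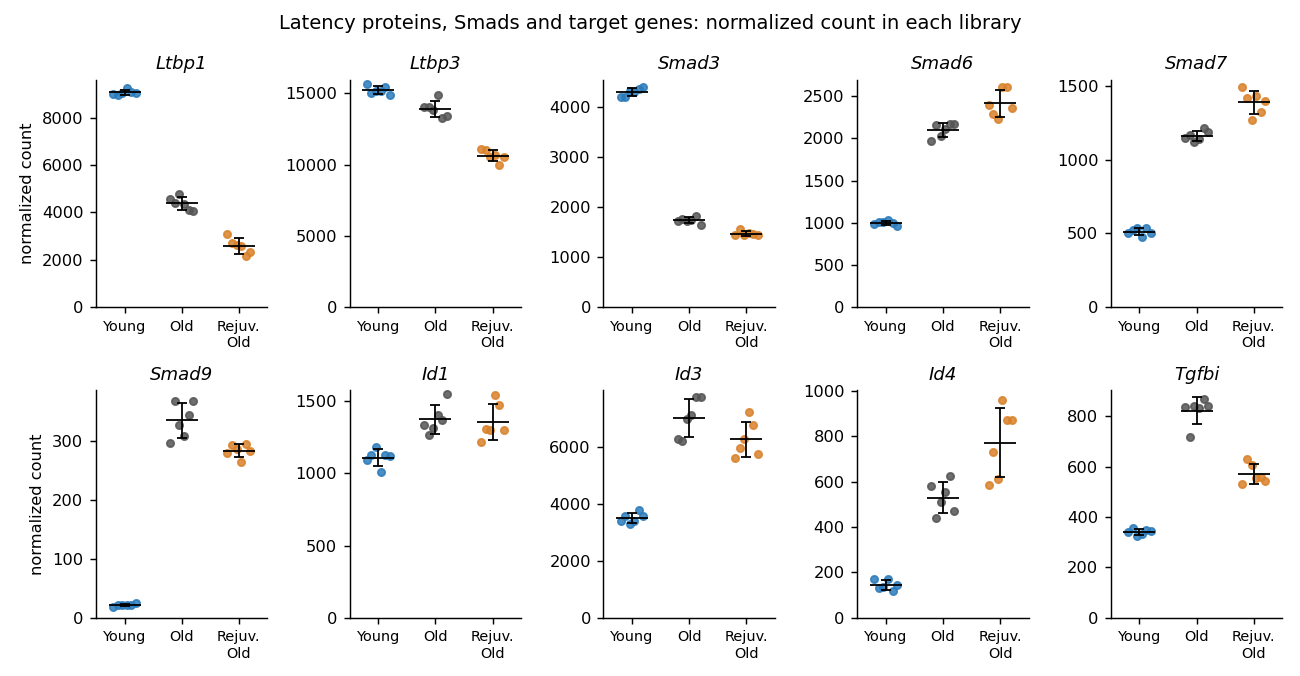
Normalized count of 2 latency proteins, 4 Smads and 4 target genes in each of the 18 libraries (points) with the group mean and SD (black), each panel on its own linear axis from 0. Smad6 and Smad7 are highest in all 6 rejuvenated old libraries, Smad3 and Ltbp1 are highest in young libraries, and Id1 overlaps between old and rejuvenated old libraries.

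Of the members' calls, 6 lay close to the threshold and were lost when single libraries were left out. Id3, the most abundant Id gene per kilobase, had 3303 to 3767 (median 3483) in young libraries, 6211 to 7748 (median 7040.2) in old libraries and 5584 to 7211 (median 6104) in rejuvenated old libraries normalized counts, with -0.16 (SE 0.06, adjusted p = 0.0358) after co-culture. Its young libraries lay below all others. The call after co-culture was lost without any 1 of old replicates 3 to 6 or rejuvenated old replicates 1, 2, 3 and 6, with values of -0.17 to -0.13. Fstl1, a secreted follistatin-like protein, had 11558 to 12352 (median 11799) in young libraries, 46021 to 47648 (median 47009) in old libraries and 45529 to 52835 (median 50631) in rejuvenated old libraries, with 0.09 (SE 0.03, adjusted p = 0.0346) after co-culture and -1.98 in young MSCs, or -1.23 relative to the median of chromosome 16. Its call was lost without old replicates 1, 3 or 6 or rejuvenated old replicates 2, 3 or 4 (0.08 to 0.09). Skil, or SnoN, which represses Smad target genes, had 933 to 998 (median 988) in young libraries, 405 to 553 (median 475) in old libraries and 322 to 447 (median 421) in rejuvenated old libraries, with -0.21 (SE 0.08, adjusted p = 0.0319) after co-culture and 1.05 in young MSCs. Without old replicates 2, 3 or 5 or rejuvenated old replicates 4 or 5 the former was -0.21 to -0.14 and no longer passed. Acvr2a, an activin type II receptor, had 329 to 411 (median 385) in young libraries, 769 to 868 (median 795) in old libraries and 594 to 778 (median 731) in rejuvenated old libraries, and its fall of -0.17 (SE 0.06, adjusted p = 0.0324) was lost without old replicates 3 or 5 or rejuvenated old replicates 3 or 5 (-0.17 to -0.12). For Smad9 the fall of -0.24 (SE 0.08, adjusted p = 0.0217), although its groups did not overlap, was lost without old replicates 2 or 6 or rejuvenated old replicate 4 (-0.22 to -0.21). The difference of Id2 in young MSCs was lost without young replicates 1 or 3 or old replicate 5 (-0.12 to -0.10) and under 3 other scalings of the libraries (-0.10 to -0.06). Id3 and Fstl1 also lost their calls after co-culture when genes with low counts were kept, and Id3, Fstl1 and Skil when old and rejuvenated old libraries were fitted alone. Gdf6 in young MSCs no longer passed when libraries were scaled to the same total (-0.29) or by quantiles (-0.23).

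Other members did not pass in the main fit but passed under alternatives. After co-culture, Bmp5 and Gdf15 passed with edgeR and with DESeq2 on the recovered reads, at -0.28 and at 0.15 to 0.16, and Fstl3 did so as well, at 0.20. Bmp5, Gdf15 and Fstl3 also passed when old and rejuvenated old libraries were fitted alone, and Bmp5 and Fstl3 with a pseudocount of 10. Leaving out a library brought past the threshold Fstl3 (0.23, without old replicate 4 or rejuvenated old replicates 4 or 5), Tgfbr3 (-0.11 to -0.10) and Bmpr1a (-0.14), both without old replicate 6 or rejuvenated old replicate 4, and Bmpr1b (-0.82, without rejuvenated old replicates 1 or 2). Acvr2b passed in young against old MSCs without young replicates 1, 4 or 5 or old replicates 2 or 6 (0.71 to 0.85), at a level of few reads. The direction of Bmpr1a in young against old MSCs depended on the setting. It passed as higher with libraries scaled to the same total (0.16), to the same 75th percentile (0.12) or by quantiles (0.13). Relative to the median of its chromosome it passed as lower (-0.11).

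Levels were compared between genes as normalized counts per kilobase of exon. The summed level of the 3 TGF-β ligands was 858 ± 22.7 for young, 2226 ± 49.7 for old and 1785 ± 72.3 for rejuvenated old MSCs (SD, n = 6 each), of which Tgfb3 made up 76.5%, 72.8% and 75.1%. The sum of Bmp4, Bmp5 and Bmp6 was 291 ± 21.3, 1433 ± 35.5 and 4353 ± 659.8 in the same order. Bmp4 made up 95.6% of it for young, 78.6% for old and 92.7% for rejuvenated old MSCs. The sum of these BMP ligands was thus below that of the TGF-β ligands in young and old MSCs and above it in rejuvenated old MSCs. Among type II receptors, Tgfbr2 made up 97.3% for young, 64.5% for old and 62.2% for rejuvenated old MSCs. Smad3 made up 85.2% of Smad2 and Smad3 together for young, 56.9% for old and 54.2% for rejuvenated old MSCs. The latent TGF-β binding proteins summed to 3101 ± 44.2, 2039.6 ± 71.8 and 1498 ± 83.4, with Ltbp3 the largest in each group. Fstl1 was the most abundant antagonist throughout, at 70.5%, 86.8% and 86.7% of the secreted antagonists. These shares are descriptions with no test.

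**Figure D5:**
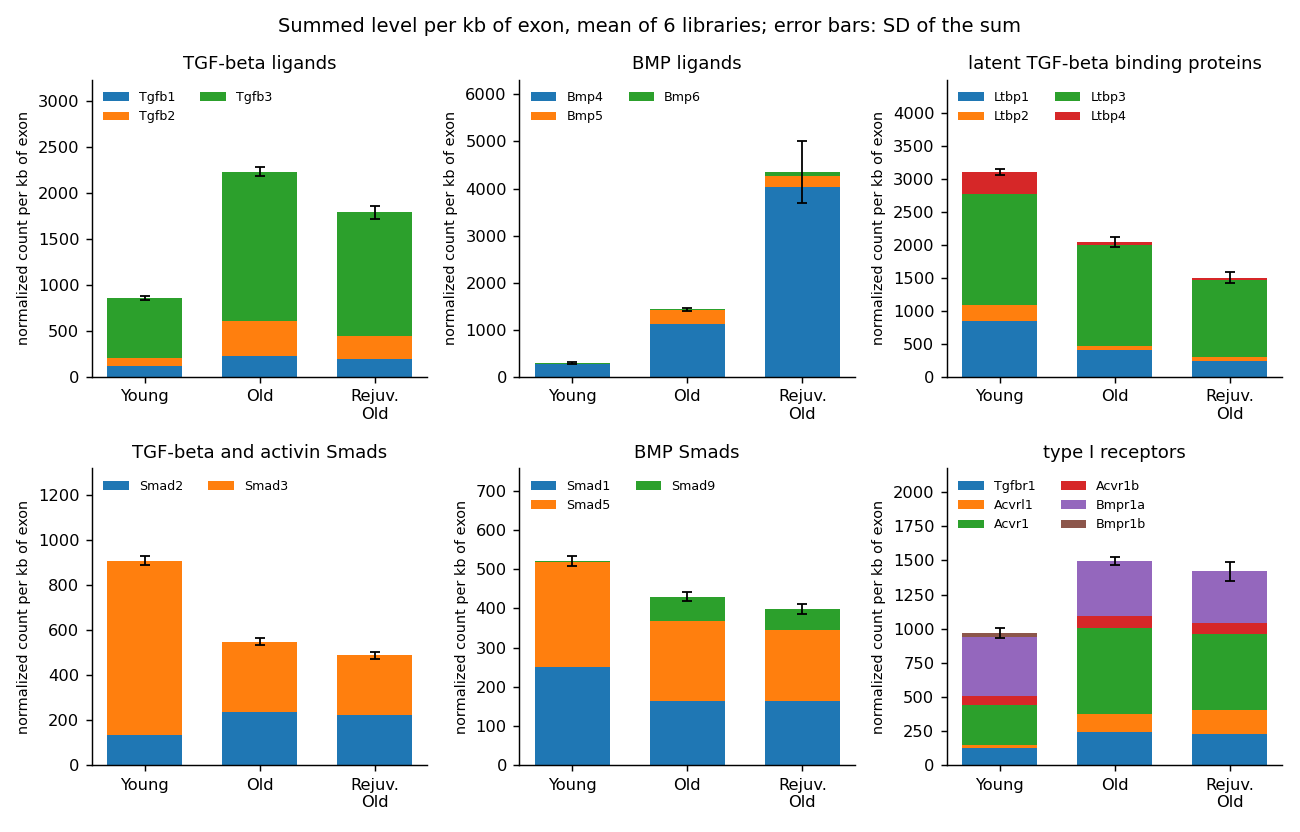
Summed level in normalized counts per kilobase of exon for 6 groups of members, as the mean of 6 libraries stacked by gene, with the SD of the sum as the error bar. The BMP ligand sum is highest in rejuvenated old MSCs, mostly Bmp4, whereas the TGF-β ligand sum is highest in old MSCs and the latent binding protein and Smad2 and Smad3 sums are highest in young MSCs.

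Both comparisons against old MSCs use the same old libraries, so a high or low old library moves both together, and the values were only set side by side. Of the members that passed in both, 16 changed after co-culture in the direction in which young differed from old MSCs. These were Tgfb1, Tgfb2, Tgfb3, Gdf6, Gdf11, Inha, Inhbb, Tgfbr1, Acvr1, Acvr2a, Bmpr2, Nog, Chrdl1, Smad9, Id3 and Tgfbi. Another 15 changed in the opposite direction, namely Bmp4, Bmp6, Tgfbr2, Acvrl1, Fst, Fstl1, Ltbp1, Ltbp3, Ltbp4, Smad3, Smad5, Smad6, Smad7, Id4 and Skil. Both lists include calls close to the threshold. The same split over all genes was not computed, so these counts are not read as a trait of the members. Chrd passed only after co-culture, but relative to its chromosome median it also passed in young against old MSCs. Nog was the only member that passed as lower in old than in both young and rejuvenated old MSCs without a passing difference between the latter (0.25 (adjusted p of 0.348)). Gdf6 was the only one that passed as higher in old than in both young and rejuvenated old MSCs without such a difference (-0.20 (adjusted p of 0.151)). Neither result shows that those groups were alike.

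Of 102 other genes of the pathway, 77 had a mean of at least 10, and 26 rose (33.8%) and 21 fell (27.3%) after co-culture, against 21.0% and 20.6% of all genes. In young against old MSCs 28 were higher (36.4%) and 42 lower (54.5%), against 41.6% and 44.1% of all genes. Postn, the matrix protein periostin that TGF-β induces, had the largest fall after co-culture, with 535 to 661 (median 588) in young libraries, 6156 to 7116 (median 6488) in old libraries and 2906 to 3548 (median 3307) in rejuvenated old libraries normalized counts. The groups did not overlap. Postn fell by 1.00 on the log2 scale after co-culture (SE 0.05, adjusted p = 1.67e-12), and young MSCs differed from old MSCs by -3.47 (SE 0.05, adjusted p = 2.38e-24). Lrrc32, or GARP, which holds latent TGF-β on the cell surface, had the largest rise, with 4630.4 to 5508 (median 4936) in young libraries, 5468 to 6026 (median 5769) in old libraries and 9614 to 10478 (median 9966) in rejuvenated old libraries and a fold change of 0.80 (SE 0.04, adjusted p = 2e-13). Bmper, an extracellular modulator of BMPs, changed by -0.96 (SE 0.13, adjusted p = 2.54e-06), and Gdf7, a BMP-like ligand, by -0.72 (SE 0.26, adjusted p = 0.0312). The call of Gdf7 was lost without old replicates 2 or 4 or rejuvenated old replicates 3 or 5 (-0.71 to -0.60). Lefty1, an inhibitor of Nodal, rose by 0.70 (SE 0.08, adjusted p = 6.52e-07), and Dcn, or decorin, a proteoglycan that binds TGF-β, by 0.60 (SE 0.07, adjusted p = 3.76e-07).

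Between young and old MSCs, osteoblast and matrix genes were among those of these other genes with large differences. Dlx5 and Sp7, transcription factors of osteoblasts that respond to BMPs, were at 922 to 1091 (median 1030.4) and 204 to 288 (median 242) normalized counts in old MSCs. Young libraries had at most 1 read of Dlx5, so that the mean was at least 324-fold higher in old MSCs, and at most 5.44 normalized counts of Sp7 (-6.21 (SE 0.30, adjusted p = 4.62e-15)). Fbn2, a fibrillin that binds latent TGF-β complexes, was at least 44.0-fold higher in old MSCs. Dcn and Htra1, a secreted protease that acts on TGF-β proteins, were higher in young MSCs by 4.23 (SE 0.07, adjusted p = 6.66e-24) and 4.07 (SE 0.06, adjusted p = 4.32e-25). Of the 23 TGF-β response genes tested, 9 rose (39.1%) and 8 fell (34.8%) after co-culture. Of the 11 BMP response genes 2 rose (18.2%) and 3 fell (27.3%), against 21.0% and 20.6% of all genes. In young MSCs 10 of the 11 BMP response genes were lower and 1 was higher. Of the 23 TGF-β response genes 13 were lower (56.5%) and 6 higher (26.1%). Of all genes 44.1% were lower and 41.6% higher, so that 85.7% passed the test.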

How the data were processed

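Per the labels and the study's methods, RNA was purified on columns with DNase digestion, libraries were made with a stranded mRNA kit, and the authors aligned reads to mm10 with HISAT2, used StringTie and featureCounts, and normalized with DESeq2 on Galaxy. Versions, annotation and strand setting are not given in the sources used here. The deposited table holds a signal for each gene in each library, that is, reads divided by 1 size factor per library, with replicates not pooled. Whole reads were recovered from the size of 1 read per library for 100% of values (tolerance 0.01 read), giving 22936251 to 29559194 reads.

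Values were tested as log2(value + 1) in R 4.3.3 with limma 3.58.1 (3 groups in 1 fit, prior variance following the mean) over the 14353 genes that averaged 10 or more, with Benjamini-Hochberg adjustment over all of them and a call at an adjusted p under 0.05. A fold change is a difference of group means on this scale and is too small for genes with low values. SD is over 6 libraries. SE is that of a difference between groups in the fit, with 1 spread per gene from all 18 libraries, drawn towards the prior variance. On the recovered reads, edgeR 4.0.16 (quasi-likelihood) called 6213 genes and DESeq2 1.42.0 called 6345 in rejuvenated old against old MSCs, against 5971 with limma. No pair of libraries within a group agreed within sampling noise (chi-square per degree of freedom 2.61 to 23.6 over 45 pairs). Where no library of a group held more than 3 reads of a gene, that group was taken to be at the floor, and folds against it are lower bounds that cover counting error only. Levels per kilobase use the union of exons in the GENCODE annotation of GRCm38, and upstream sequences come from RefSeq.

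The members, the other pathway genes, the markers and the tests were chosen with earlier results of these data known. Values are given for up to 3 members of each role with the largest change among those called in each comparison against old MSCs, and for the 3 largest rises and falls of the other pathway genes. The other members named, and the Y-linked genes and Xist, were chosen after their values were seen. Alternatives covered pseudocounts, filters, scalings, fits, tools, thresholds, chromosome medians and leaving out each library. The tests were tried on simulated data before use.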

Additional observations from a re-analysis of the deposited data

Results flagged for a closer look

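Within groups of 6 libraries, 1 library stood apart from the others in 12 of the 152 groups tested, each being 1 member in 1 group, and chance gives about 1 in 20. Tgfb1 was at 884 normalized counts in rejuvenated old replicate 6, against 955 to 993 in the others. Tgfb2 was at 561 in young replicate 4, against 460 to 484. Gdf5 was at 37.7 in rejuvenated old replicate 4, against 12.3 to 18.6. Acvr1b was at 329.7 in young replicate 1, against 279 to 298. Acvr2a was at 868 in old replicate 3, against 769 to 803, and Acvr2b was at 6.52 in rejuvenated old replicate 5, against 11.4 to 14.2. Ltbp2 was at 554 in old replicate 6, against 423 to 459, and Ltbp4 was at 305 in rejuvenated old replicate 1, against 157 to 191. Smad2 was at 1766 in rejuvenated old replicate 5, against 1973 to 2042. Id2 was at 1016 in old replicate 1, against 1180 to 1249. Skil was at 322 in rejuvenated old replicate 5, against 403 to 447. Tgfbi was at 719 in old replicate 2, against 833 to 868. Rejuvenated old replicates 1, 5 and 6 also had the largest median absolute log2 deviation from their group mean over the members, at 0.106, 0.131 and 0.113, against 0.0646 to 0.0864 in the other libraries.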

How the results depend on the processing

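Of the 186 values for single genes, each recomputed under up to 31 alternatives, 4526 of 4638 recomputed values kept their direction and side of the threshold, 57 gained a call, 52 lost one and 3 turned. Relative to the median of their chromosome, Bmpr2 turned to -0.031 in rejuvenated old against young MSCs, and Id2 turned to 0.33 in young against old and to -0.24 in rejuvenated old against young MSCs. Counts moved by over 1.5 times only with a minimum fold change, which removes small changes by construction. When changes below 1 on the log2 scale were dropped, 6 members rose and 0 fell in rejuvenated old against old MSCs, 19 were lower in young than in old MSCs and 16 were higher in rejuvenated old than in young MSCs. Of the other pathway genes, 0 rose and 0 fell after co-culture, 13 were higher and 25 lower in young than in old MSCs, and 12 had a lower level in rejuvenated old MSCs than in young MSCs. When those below 0.5 were dropped, 5 members fell after co-culture, 4 other pathway genes rose and 5 fell, and 19 of them had a lower level in rejuvenated old MSCs than in young MSCs. The share of all genes passing with these minimum fold changes was not computed, so the counts are not read as a result about the pathway. Leaving out 1 library gave 12 to 14 members higher and 16 to 19 lower after co-culture. With the replicate number as a block, the counts after co-culture were 13 and 19. The numbers are only names, since the deviations of same-numbered libraries correlated at -0.152 to 0.0736 and 0 of 18 libraries correlated best with its own number. Calls for genes near 10 normalized counts, such as Nog, Chrdl1, Bmpr1b and Acvr2b, rest on few reads.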
